A study of Rattus norvegicus with 8 samples.

Results

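The genes described here are regulators and contractile proteins of skeletal, cardiac and smooth muscle, together with 4 fibroblast markers, measured in a rat heart-derived cell line. Of 44 listed genes, 43 are features of the deposited count table, and Ttn was not analysed here. The rule keeps a gene with at least 10 total exon reads in 2 libraries, which left 34 genes of the 32258 features in the table. The 9 genes under that minimum were Myod1, Myf5, Tbx5, Tbx20, Myh7, Tnnt1, Tnni1, Ckm and Ckb, and all 34 genes above it also passed the filter of the test, in which 12407 genes were compared.

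Poly(A) RNA was sequenced from H9C2, a line of cardiomyoblasts from embryonic rat heart, 2 days after transduction with a pDC316 vector. In the S280D group the vector carried YFP fused to PPARα whose serine was replaced by a phospho-mimicking aspartate. In the S280A group a phospho-resistant alanine took the same place, in the WT group the fused receptor was wild type, and the YFP group received YFP without the receptor. All 4 groups therefore carry YFP, each holds 2 libraries, and all come from a single cell line; the promoter that drives the insert was not stated in the labels. Whether the 2 libraries of one group are separate cultures is not stated, so p-values here reflect the spread between these samples, which may be technical.

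PPARα is a nuclear receptor that pairs with RXR on DNA to turn on fatty acid metabolism. Muscle genes are switched on by a small set of DNA-binding proteins. MyoD, Myf5 and myogenin drive the skeletal programme, GATA, T-box and Hand factors the cardiac one, and MEF2 factors act in all 3 muscle types. Serum response factor (SRF) binds the CArG box in promoters of actins and smooth muscle genes and is held active there by its cofactor myocardin or by the actin-regulated MRTF proteins. In fibroblast-like and smooth muscle cells the same contractile genes serve stress fibres.

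Libraries held 14018785 to 39526013 exon reads, with the deepest being the first S280D library and the shallowest the second S280A library. Ppara lay at 12382 to 24134 CPM (reads relative to library size, scaled by TMM) in libraries with a receptor construct and at 59.5 to 74.4 CPM in YFP. Of 10 cardiomyocyte markers, 8 stayed under 1 CPM in every library, Myh6, Nppa, Nkx2-5 and Myl2 among them, and the list summed to 1.41 to 3.99 CPM. Of 11 skeletal muscle markers 7 stayed under 1 CPM and Chrna1 was at 0, while the list summed to 41.9 to 57.5 CPM, most of it Myh1. Fibroblast and matrix markers summed to 41783 to 68545 CPM, carried by Col1a1, Col1a2 and Col3a1, with Tcf21 at 0 and Pdgfra and Fap under 1 CPM. Endothelial, leukocyte and epithelial lists summed to at most 1.89, 1.61 and 22.5 CPM, with Emcn and Ptprc at 0 and Krt8 giving most of the epithelial sum. These libraries of a line labelled cardiomyoblast thus held most of the 10 listed cardiomyocyte markers at or near 0, with each construct. Of cardiac contractile genes not on that list, Tnnt2 stood at 129 to 265 CPM and Tnnc1 at 252 to 525 CPM. Actc1 and Myh7 stayed at or under 1.33 and 0.817 CPM.

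Per kilobase of exon, the most abundant of the 34 genes was Acta2, smooth muscle α-actin, at a mean of 6811 CPM per kb over the 8 libraries. Vim, the intermediate filament protein of mesenchymal cells, followed at 4305 CPM per kb and Tagln, the actin-binding protein transgelin, at 1880 CPM per kb. Tpm2, Cnn2, Tnnc1, Myl9 and Tpm1 lay between 776 and 238 CPM per kb. Des, the intermediate filament protein of muscle, stood at only 0.272 CPM per kb. The 34 genes together took 1.97% and 2.17% of exon reads with S280D, 2.60% and 2.94% with S280A, 2.15% and 2.21% with WT and 2.85% and 2.52% with YFP alone. Both S280D libraries and both WT libraries were below all S280A and YFP libraries in this share.

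**Figure D1:**
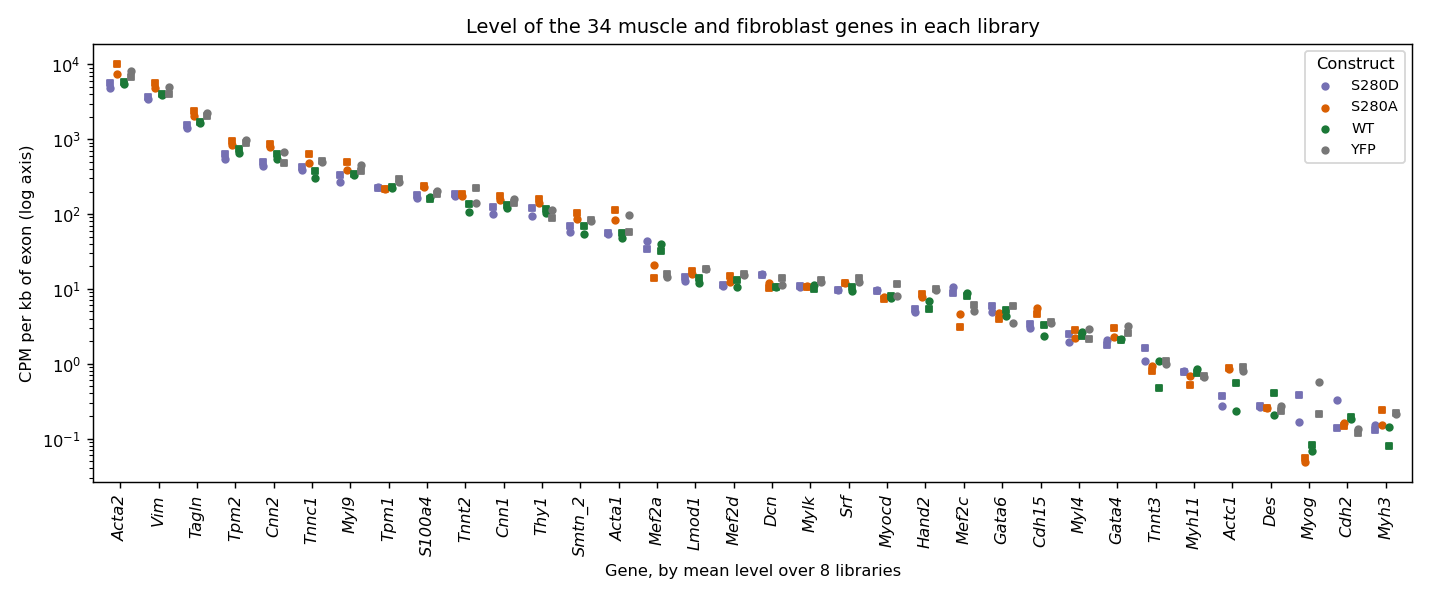
Level of each of the 34 genes in each library, as TMM-scaled CPM per kb of exon on a log axis, with genes ordered by mean level over the 8 libraries. Circles are replicate 1 and squares replicate 2, coloured by construct; Acta2 leads at a mean of 6811 CPM per kb and Des stands at 0.272 CPM per kb.

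Most contractile genes that changed were lower with the phospho-mimicking than with the phospho-resistant receptor, while the MEF2 genes Mef2a and Mef2c were higher. In S280D against S280A, 18 of 34 genes were called at an edgeR adjusted p under 0.05, 3 higher and 15 lower. That is 52.9% of them, beside 39.3% of all genes tested, with 8.82% higher beside 21.3% and 44.1% lower beside 18% of all genes. The 34 genes come from a list chosen with earlier results of these data known, which limits what such shares can show. The median log2 fold change of the 34 genes was -0.38, against -0.01 over all genes. In S280D against YFP 11 genes were called, 2 higher and 9 lower, or 32.4% beside 30.7% of all genes, so the total share is near the background. Lower calls made up 26.5% of the 34 genes beside 13.7% of all genes there.

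In WT against YFP 7 genes were called, 2 higher and 5 lower, which is 20.6% beside 19.6% of all genes. In S280A against WT 12 were called, 10 higher and 2 lower, or 35.3% beside 26% of all genes, and the higher calls were 29.4% beside 10.1%. No gene of the 34 was called in S280A against YFP, where 9 had an unadjusted p under 0.05, DESeq2 called 1 and edgeR called 0.0403% of all genes. None was called in S280D against WT either, where 2 had an unadjusted p under 0.05, DESeq2 called 0 and the share of all genes was again 0.0403%. A p that misses the threshold does not show that these groups act alike. The 6 comparisons share libraries, and in all 22 genes were called in at least 1 of them. The share of all genes called in at least 1 comparison was not computed, so this count has no background to be read against. In a bulk sample, fewer cells of a type and less RNA per cell cannot be told apart.

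**Figure D2:**
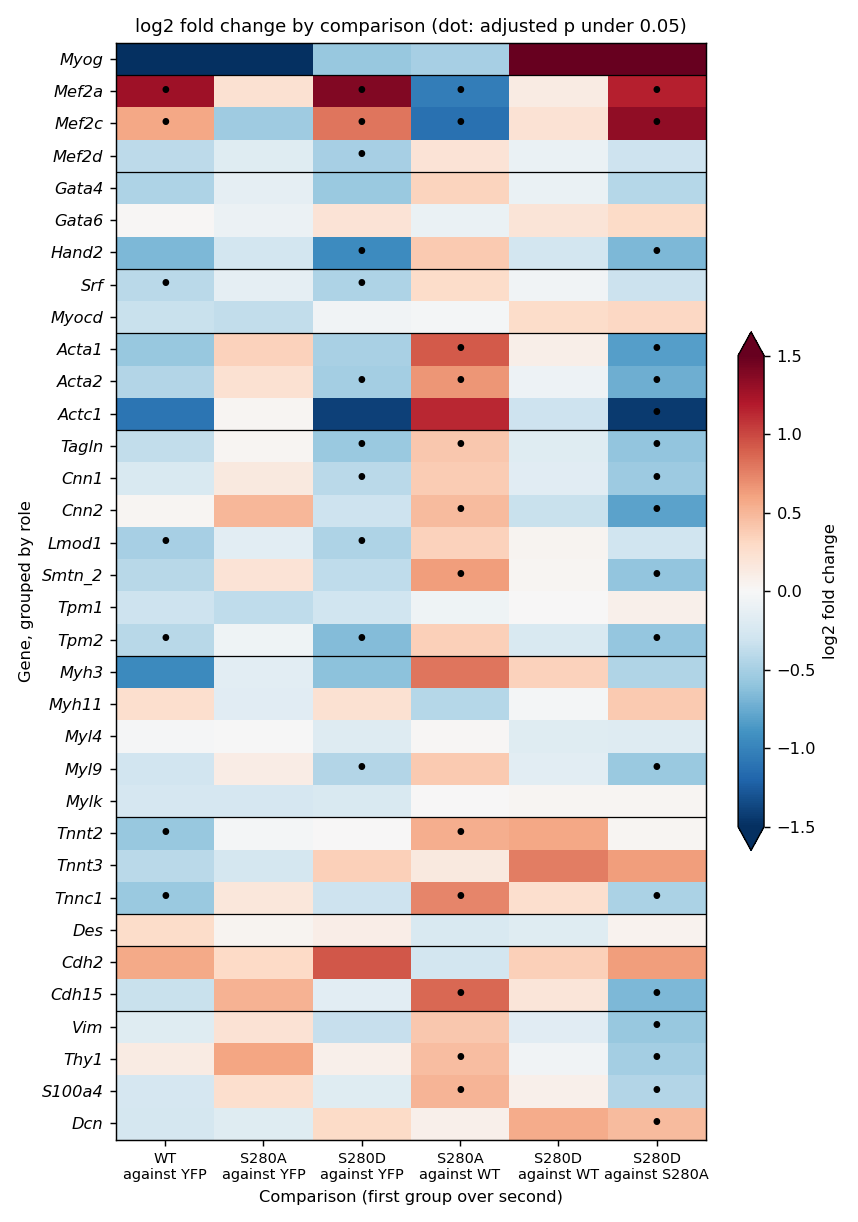
log2 fold change of each of the 34 genes in each comparison, first group over second, with genes grouped by role and a dot where the edgeR adjusted p is under 0.05. Colours stop at 1.5 in either direction; dots are most frequent in S280D against S280A, with 18 of 34 genes, and absent from S280A against YFP and S280D against WT.

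Among the MEF2 factors, which bind promoters of muscle genes together with myogenic or cardiac factors, Mef2a and Mef2c rose in S280D against both S280A and YFP. Mef2a (Rnor_6.0 chromosome 1, 128209970 to 128341263) stood at 150 and 117 CPM in S280D, 71.7 and 47.7 CPM in S280A, 136 and 109 CPM in WT and 48.3 and 53.5 CPM in YFP. All S280D and WT libraries were above all S280A and YFP libraries. Its log2 fold change was 1.16 ± 0.20 (SE) for S280D against S280A (edgeR adjusted p = 0.00231) and 1.39 ± 0.20 for S280D against YFP (adjusted p = 0.00117). It was 1.27 ± 0.20 for WT against YFP (adjusted p = 0.00423) and -1.04 ± 0.20 for S280A against WT (adjusted p = 0.00849).

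Mef2c (chromosome 2, 11658567 to 11822787) stood at 68.7 and 57 CPM in S280D, 30.1 and 19.7 CPM in S280A, 56.4 and 51.8 CPM in WT and 32.8 and 39.5 CPM in YFP. The groups did not overlap in any of the 4 comparisons in which it was called, and both S280A libraries lay below both YFP libraries. Its log2 fold change was 1.33 ± 0.19 for S280D against S280A (adjusted p = 0.00174), 0.80 ± 0.19 for S280D against YFP (0.00979), 0.58 ± 0.19 for WT against YFP (0.0492) and -1.11 ± 0.19 for S280A against WT (0.00775). The WT against YFP call is lost in 8 of the 15 alternatives, which gave 0.31 to 0.72. Mef2d went the other way. It stood at 23.3 and 24 CPM in S280D, 26.5 and 32 CPM in S280A, 22.8 and 28 CPM in WT and 32.6 and 34 CPM in YFP, and passed only in S280D against YFP, at -0.49 ± 0.15 (adjusted p = 0.0318).

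Srf (chromosome 9, 16737641 to 16747225) was lower with both S280D and WT than with YFP. It stood at 39.4 and 39.1 CPM in S280D, 48.8 and 49.7 CPM in S280A, 38.1 and 43.6 CPM in WT and 50.1 and 58 CPM in YFP, and fell by 0.46 on the log2 scale in S280D against YFP (adjusted p = 0.0211) and by 0.41 in WT against YFP (adjusted p = 0.0482). The call in WT against YFP is lost in 9 of the 15 alternatives. Myocd, which encodes myocardin, stood at 48.5 and 47.1 CPM in S280D, 39.6 and 37.4 CPM in S280A, 38 and 41 CPM in WT and 40.9 and 58.4 CPM in YFP. The 2 YFP libraries lie far apart, and Myocd was called in no comparison.

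Promoters give the sequence context for SRF. RefSeq promoters of the GRCr8 assembly, from 250 bases before to 50 bases after each gene's start, matched 22 of the 34 genes by symbol. The CArG box was searched on both strands, and its letters occurred in 1.64% of 27457 promoters and in 4 of the 22, those of Acta1, Actc1, Cnn2 and Srf. The MEF2 element occurred in 3.37% of promoters and in 1 of the 22, that of Mef2a. A match describes these letters in this window and is not a site, and no match says only that the letters are absent there. The 150-base windows below are shown because these 4 genes were lower in S280D in at least 1 comparison; they run 5′ to 3′ on the gene's strand with the CArG box in capitals. GRCr8 positions cannot be set beside the Rnor_6.0 positions of the count table. Acta1 lies at chr19:68784195-68784344 on the minus strand, Actc1 at chr3:121271816-121271965 on the minus strand, Cnn2 at chr7:10370313-10370462 on the minus strand and Srf at chr9:21923926-21924075 on the plus strand.
Acta1: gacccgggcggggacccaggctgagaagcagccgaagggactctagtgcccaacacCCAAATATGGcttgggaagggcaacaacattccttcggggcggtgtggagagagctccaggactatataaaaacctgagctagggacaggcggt
Actc1: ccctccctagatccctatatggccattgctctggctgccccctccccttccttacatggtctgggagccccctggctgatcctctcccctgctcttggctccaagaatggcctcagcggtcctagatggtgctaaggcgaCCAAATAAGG
Cnn2: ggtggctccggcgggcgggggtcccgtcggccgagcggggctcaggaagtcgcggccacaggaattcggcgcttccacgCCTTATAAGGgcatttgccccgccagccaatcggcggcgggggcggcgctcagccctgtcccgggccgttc
Srf: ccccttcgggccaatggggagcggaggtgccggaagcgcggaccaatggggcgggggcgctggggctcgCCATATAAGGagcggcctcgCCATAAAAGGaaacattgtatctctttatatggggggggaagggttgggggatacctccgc
Counted from the start of the gene, with -1 as the last base before it, the box spans -94 to -85 in Acta1 and -71 to -62 in Cnn2. Srf holds 2 boxes, at -81 to -72 and at -61 to -52, and in Actc1 the box lies after the start, at 3 to 12.

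Of the cardiac transcription factors, Hand2, which patterns the ventricles and outflow tract, was the member that changed. Hand2 (chromosome 16, 36371488 to 36373546) stood at 3.14 and 3.51 CPM in S280D, 4.99 and 5.56 CPM in S280A, 4.45 and 3.52 CPM in WT and 6.27 and 6.49 CPM in YFP. S280D was below S280A and YFP in both libraries. It fell by 0.94 ± 0.23 in S280D against YFP on the log2 scale (adjusted p = 0.012) and by 0.67 ± 0.24 in S280D against S280A (adjusted p = 0.0439), the second of which is lost in every fit that leaves out a library. Gata4 was at 7.03 and 6.01 CPM in S280D, 7.58 and 10.1 CPM in S280A, 7.1 and 6.91 CPM in WT and 10.7 and 8.58 CPM in YFP, with no call; its log2 fold change in S280D against YFP was -0.56. Gata6 ranged over 7.5 to 12.6 CPM without a call.

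Regulators of the skeletal programme were almost absent. Myog, which encodes myogenin and drives terminal differentiation, had 10 and 12 reads with S280D, 1 and 1 with S280A, 2 and 2 with WT and 14 and 6 with YFP alone. Those are 0.242 and 0.546 CPM in S280D, 0.0702 and 0.0805 CPM in S280A, 0.1 and 0.119 CPM in WT and 0.82 and 0.307 CPM in YFP. Myog met the rule of 10 reads only through both S280D libraries and the first YFP library. Its higher values in S280D and YFP are therefore tied to how the gene was kept. On counts this small no comparison was called. Myod1 stayed at 0.536 CPM or less, and Myf5 had 1 read in 1 of 8 libraries, where 3 counts correspond to 0.0725 to 0.242 CPM.

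All 3 muscle actins, the main thin filament proteins, fell in S280D against S280A, where 18% of all genes were called lower. Acta2 (chromosome 1, 252537614 to 252550394) stood at 6829 and 7903 CPM in S280D, 10435 and 14127 CPM in S280A, 7493 and 7984 CPM in WT and 11477 and 9550 CPM in YFP. S280D and WT libraries lay below all S280A and YFP libraries. Its log2 fold change was -0.74 ± 0.16 in S280D against S280A (adjusted p = 0.00659), -0.51 ± 0.16 in S280D against YFP (0.0355) and 0.67 ± 0.16 in S280A against WT (0.0167). In WT against YFP it was -0.44, with an adjusted p of 0.0765.

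Acta1, skeletal α-actin, stood at 78.8 and 80.3 CPM in S280D, 118 and 165 CPM in S280A, 69.5 and 80.2 CPM in WT and 140 and 82.7 CPM in YFP. The 2 YFP libraries spanned much of that range. It fell by 0.83 ± 0.22 in S280D against S280A (adjusted p = 0.0139) and rose by 0.92 ± 0.22 in S280A against WT (adjusted p = 0.0159). Actc1, cardiac α-actin, was near the detection limit, at 0.411 and 0.546 CPM in S280D, 1.26 and 1.29 CPM in S280A, 0.35 and 0.834 CPM in WT and 1.17 and 1.33 CPM in YFP. Its fall of 1.43 ± 0.53 in S280D against S280A (adjusted p = 0.0495) is lost in every fit that leaves out a library. Of the reads, 86.7% for Acta1 and 87.7% for Actc1 were unique, so that some may come from related actins.

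Of the smooth muscle and thin filament proteins, 5 of 7 were lower in S280D against S280A, beside 18% of all genes. In S280D against YFP 4 of 7 were lower, beside 13.7% of all genes. Tagln (chromosome 8, 50222895 to 50231357) stood at 1776 and 1920 CPM in S280D, 2530 and 3020 CPM in S280A, 2049 and 2140 CPM in WT and 2850 and 2577 CPM in YFP. It fell by 0.59 in S280D against S280A (adjusted p = 0.00588) and by 0.55 ± 0.13 in S280D against YFP (adjusted p = 0.00909), and rose by 0.41 in S280A against WT (adjusted p = 0.0377). Tpm2, β-tropomyosin, stood at 817 and 951 CPM in S280D, 1232 and 1416 CPM in S280A, 976 and 1089 CPM in WT and 1432 and 1334 CPM in YFP. It was lower in S280D against YFP by a log2 fold change of -0.65 ± 0.13 (adjusted p = 0.00514), in S280D against S280A by -0.58 (0.00634) and in WT against YFP by -0.42 (0.0406).

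Cnn1, basic calponin, stood at 150 and 188 CPM in S280D, 233 and 261 CPM in S280A, 182 and 198 CPM in WT and 236 and 210 CPM in YFP, with log2 fold changes of -0.55 in S280D against S280A (adjusted p = 0.0102) and -0.40 in S280D against YFP (0.0437). Cnn2, a calponin of many cell types, was at 289 and 327 CPM in S280D, 513 and 564 CPM in S280A, 362 and 415 CPM in WT and 443 and 322 CPM in YFP. It fell by 0.80 in S280D against S280A (adjusted p = 0.00364) and rose by 0.47 in S280A against WT (adjusted p = 0.0442). The S280A against WT call is lost in 9 of the 15 alternatives, and only 38.6% of Cnn2 reads were unique. Smtn_2, the smoothelin locus of the table, stood at 190 and 228 CPM in S280D, 282 and 346 CPM in S280A, 177 and 231 CPM in WT and 268 and 276 CPM in YFP. It fell by 0.59 in S280D against S280A (adjusted p = 0.0131) and rose by 0.62 in S280A against WT (adjusted p = 0.0172).

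Lmod1, leiomodin of smooth muscle, was called against YFP only. It was at 56.7 and 64.3 CPM in S280D, 71.5 and 77.6 CPM in S280A, 54.2 and 63.6 CPM in WT and 82.3 and 83.8 CPM in YFP, with log2 fold changes of -0.46 in S280D against YFP (adjusted p = 0.0207) and -0.50 in WT against YFP (0.0229). Tpm1, α-tropomyosin, ranged over 672 to 926 CPM and had no call in any comparison. Against YFP its log2 fold change was -0.30 in S280D, -0.38 in S280A and -0.31 in WT, while S280D against S280A gave 0.07. Both YFP libraries, at 829 and 926 CPM, lay above all libraries with a receptor.

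**Figure D3:**
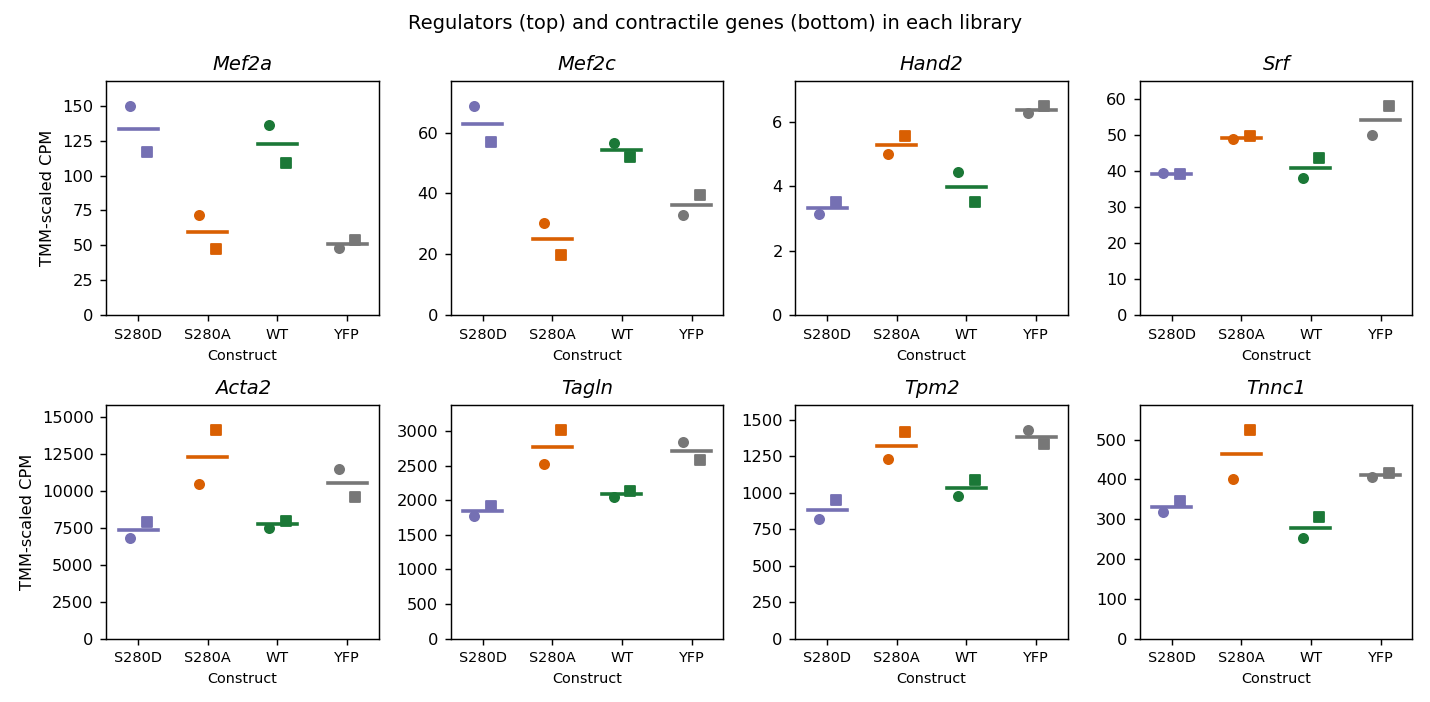
TMM-scaled CPM of Mef2a, Mef2c, Hand2, Srf, Acta2, Tagln, Tpm2 and Tnnc1 in each library, by construct, on linear axes that start at 0. Each line is a group mean, with replicate 1 as a circle and replicate 2 as a square; Mef2a lies at 109 CPM or above in S280D and WT and at 71.7 CPM or below in S280A and YFP.

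Of the myosins and their kinase, Myl9, the regulatory light chain of smooth muscle and non-muscle myosin, was the member that changed. It stood at 300 and 370 CPM in S280D, 433 and 550 CPM in S280A, 366 and 382 CPM in WT and 501 and 411 CPM in YFP. The fall was 0.55 in S280D against S280A (adjusted p = 0.0165) and 0.44 in S280D against YFP (adjusted p = 0.0472), where the call is lost in 8 of the 15 alternatives. Mylk, the kinase that phosphorylates this light chain, ranged over 80.9 to 104 CPM and was called in no comparison. Myh11, the smooth muscle myosin heavy chain, stayed between 3.46 and 5.75 CPM, Myl4 between 1.57 and 2.34 CPM and Myh3 between 0.477 and 1.45 CPM, also without a call.

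Troponins, the calcium switch of the striated thin filament, gave calls for 2 of the 3 genes tested in WT against YFP, beside 19.6% of all genes. The same 2 were called in S280A against WT, beside 26% of all genes. Tnnc1, troponin C of slow and cardiac muscle, stood at 318 and 346 CPM in S280D, 401 and 525 CPM in S280A, 252 and 307 CPM in WT and 405 and 415 CPM in YFP. It fell by 0.48 in S280D against S280A (adjusted p = 0.0242) and by 0.56 in WT against YFP (0.0253), and rose by 0.73 in S280A against WT (0.00984). Tnnt2, cardiac troponin T, stood at 214 and 225 CPM in S280D, 208 and 222 CPM in S280A, 129 and 165 CPM in WT and 172 and 265 CPM in YFP. Both WT libraries were the lowest of the 8. It was lower in WT against YFP by -0.57 (adjusted p = 0.0488) and higher in S280A against WT by 0.55 (0.0485), and neither S280D comparison with S280A or YFP was called. Each of these 2 calls is lost in 7 of the 15 alternatives, which gave -0.85 to -0.23 in WT against YFP and 0.38 to 0.76 in S280A against WT. Tnnt3, troponin T of fast muscle, ranged over 0.536 to 1.82 CPM without a call.

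Des stood at 0.58 and 0.592 CPM in S280D, 0.562 and 0.564 CPM in S280A, 0.45 and 0.894 CPM in WT and 0.586 and 0.511 CPM in YFP, and was called in no comparison. Cdh15, the M-cadherin of myoblasts, stood at 8.34 and 9.24 CPM in S280D, 15.2 and 12.8 CPM in S280A, 6.4 and 9.12 CPM in WT and 9.54 and 10 CPM in YFP. It fell by 0.68 in S280D against S280A (adjusted p = 0.0229) and rose by 0.86 ± 0.21 in S280A against WT (0.0162). Both S280A libraries were above all the others. Cdh2, N-cadherin, stayed at 1.43 CPM or less.

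All 4 fibroblast markers were called in S280D against S280A, 3 lower and 1 higher, where 18% of all genes were called lower and 21.3% higher. Vim stood at 6332 and 6773 CPM in S280D, 8954 and 10480 CPM in S280A, 7159 and 7535 CPM in WT and 9264 and 7455 CPM in YFP, and its log2 fold change was -0.57 in S280D against S280A (adjusted p = 0.0105) and -0.35 in S280D against YFP, which did not pass. Thy1, a surface glycoprotein of fibroblasts, was at 124 and 158 CPM in S280D, 188 and 214 CPM in S280A, 137 and 154 CPM in WT and 150 and 117 CPM in YFP. It fell by 0.51 in S280D against S280A (adjusted p = 0.0241) and rose by 0.47 in S280A against WT (0.0489). S100a4, a calcium-binding protein of mesenchymal cells, was at 108 and 116 CPM in S280D, 151 and 153 CPM in S280A, 110 and 104 CPM in WT and 133 and 120 CPM in YFP, with log2 fold changes of -0.44 in S280D against S280A (0.0124) and 0.51 in S280A against WT (0.0125).

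Dcn, the matrix proteoglycan decorin, ran against the other markers. It stood at 29.5 and 28.4 CPM in S280D, 22.3 and 19.3 CPM in S280A, 19.5 and 19.9 CPM in WT and 21.3 and 26 CPM in YFP, and rose by 0.48 in S280D against S280A (adjusted p = 0.0316), a call lost in 6 of the 15 alternatives. In S280D against WT its log2 fold change was 0.55, the 2 groups did not overlap and the comparison was not called.

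Matrix genes outside the 34 were also followed in these comparisons. The list of 9 fibroblast and matrix markers summed to 47309 and 50952 CPM in S280D, 57368 and 66357 CPM in S280A, 41783 and 47449 CPM in WT and 59306 and 68545 CPM in YFP. Of the 6 tested, 1 was higher and 1 lower in S280D against S280A, or 33.3% called beside 39.3% of all genes, which is no more than the background. In S280D against YFP 1 was higher and 2 lower, or 50% of only 6 genes beside 30.7% of all genes. Col1a1, the main chain of collagen I, averaged 22618 ± 1331 CPM in S280D, 31313 ± 4128 CPM in S280A and 31855 ± 3807 CPM in YFP (SD, n = 2 each), with log2 fold changes of -0.47 against S280A (adjusted p = 0.0314) and -0.49 against YFP (adjusted p = 0.0319). Postn, the matrix protein periostin, rose in S280D, by 0.80 against S280A (adjusted p = 0.00398) and by 0.53 against YFP (adjusted p = 0.0258). The part of matrix-producing cells in the differences of the 34 genes was not tested.

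Transcript length moved with these differences, while lane was unbalanced between the groups in every comparison except S280D against S280A. Among the 34 genes, the 15 called lower in S280D against S280A had a median exon length of 1391 bases and the 3 called higher 3398 bases. Over all genes called in that comparison the medians were 1938 and 3191 bases. Across genes, which are not independent replicates, a library's deviation from the 8-library mean had a Spearman's rho with exon length of 0.238 and 0.211 for S280D, -0.140 and -0.232 for S280A, 0.129 and 0.158 for WT and -0.247 and -0.0648 for YFP. With an offset for exon length 20 of the 34 genes were called in S280D against S280A, 3 higher and 17 lower, 16 of them also called without it. Under the offset Hand2 and S100a4, of 645 and 653 bases, lost the call in S280D against S280A. Cnn1 and Myl9 lost theirs in S280D against YFP, Cnn2 in S280A against WT and Mef2c in WT against YFP. Beyond this offset the part of length in single genes was not tested.

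**Figure D4:**
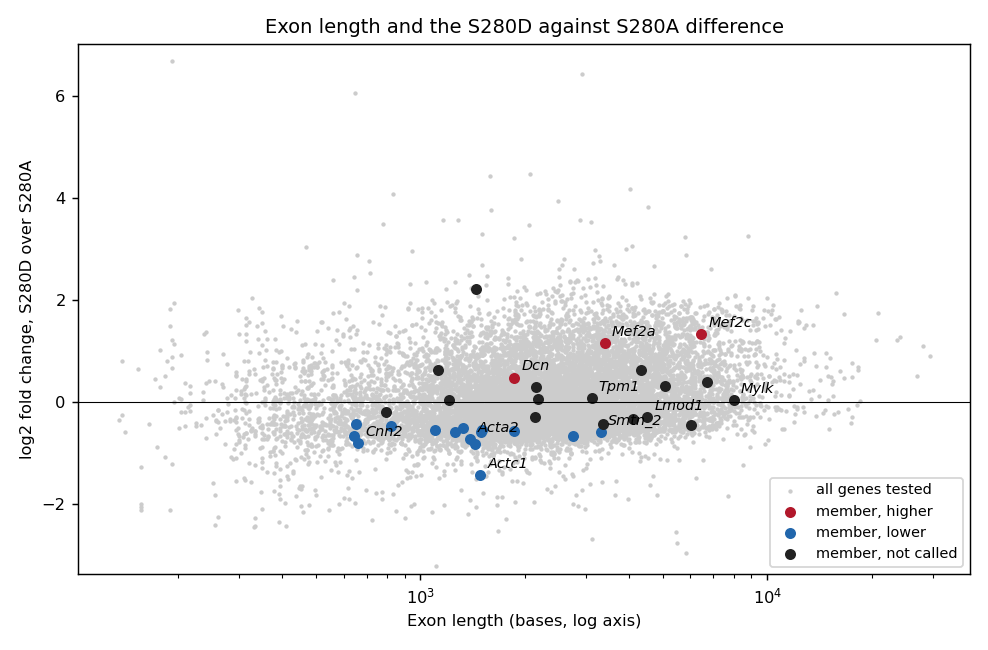
Exon length of each gene tested, in bases on a log axis, against its log2 fold change for S280D over S280A. Grey points are all genes, and the 34 muscle and fibroblast genes are red where called higher, blue where called lower and black where not called; the blue points have a median length of 1391 bases and the red points 3398 bases.

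The column names put the YFP libraries in lane 1 and the WT libraries in lane 2, so lane and group cannot be told apart in WT against YFP, and with lane as a covariate 0 of its 7 calls remained. S280D and S280A have 1 library in each lane. All 18 genes called between them had the same sign in lane 1 and in lane 2, with median log2 ratios of -0.79 in lane 1 and -0.40 in lane 2 for the lower genes and 1.64 and 0.70 for the higher genes. In S280D against YFP only lane 1 holds both groups, and with lane as a covariate 3 of its 11 calls remained, though all 11 had the same sign within lane 1. In S280A against WT only lane 2 does, and with the covariate 5 of 12 calls remained, though all 12 had the same sign within lane 2. These within-lane ratios come from the libraries that gave the calls, so shared signs are not independent support. For all called genes the share of same signs within a lane was not computed.

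Single libraries carried part of the counts. Without the first S280D library, 2 genes were called in S280D against S280A, Mef2a and Mef2c, and 1 in S280D against YFP, Mef2a. Without the second S280A library 3 were called in S280D against S280A, Cnn2, Mef2a and Mef2c. That library held the highest value of 12 of the 34 genes, against 23.9% of all genes. Without it, or without the first WT library, S280A against WT had 0 calls, and without the first WT library WT against YFP had 1, Mef2a. Without the second WT library the counts were 3 in WT against YFP and 6 in S280A against WT. Without the first YFP library S280D against YFP had 5, WT against YFP 3 and S280A against YFP 1, Cnn2. WT against YFP also had 4 without the first S280D library and 3 without the second. Mef2a in S280D against YFP, and Mef2a and Mef2c in S280D against S280A, were called in all 15 alternatives. Of the 48 calls over all comparisons, 34 were lost in 0 to 5 alternatives. The other 14, lost in 6 or more, include Acta2 and Cnn1 in S280D against YFP, Tpm2 in WT against YFP, and Tagln and Thy1 in S280A against WT.

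**Figure D5:**
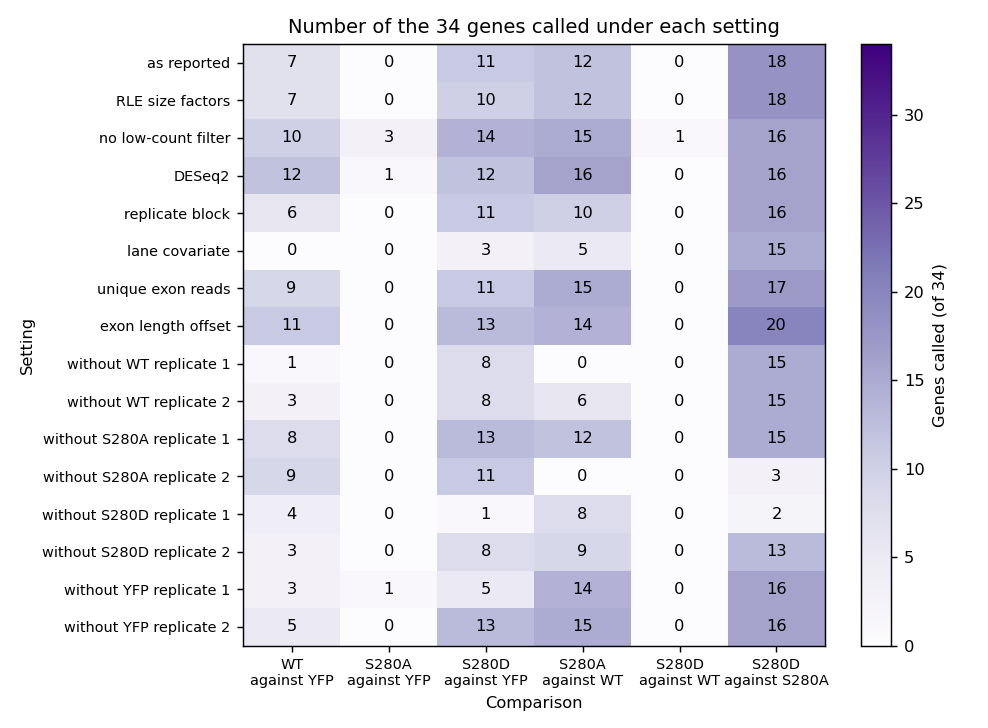
Number of the 34 genes called in each comparison, in columns, under each setting of the test, in rows, with colour and printed number giving the count. S280D against S280A holds 13 to 20 calls in most rows and falls to 3 without the second S280A library and to 2 without the first S280D library.

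Further muscle genes outside the 34 were followed in 5 lists, which were drawn up with earlier results of these data known. Of 21 sarcomere and Z-disc genes tested, 3 were higher and 3 lower in S280D against S280A, or 28.6% beside 39.3% of all genes. In S280D against YFP 3 were higher and 2 lower, or 23.8% beside 30.7%. Ankrd1, a stress-responsive protein of the sarcomere, averaged 939 ± 24.1 CPM in S280D, 666 ± 6.31 CPM in S280A and 531 ± 22.7 CPM in YFP (SD, n = 2 each). It rose by 0.49 against S280A (adjusted p = 0.00568) and by 0.82 against YFP (adjusted p = 0.000894) on the log2 scale. Pdlim5, a Z-disc adaptor, rose by 0.56 against S280A and by 0.55 against YFP. The chaperones Bag3 and Cryab fell by 0.68 each in S280D against S280A (adjusted p = 0.00353 and 0.00853).

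Genes of the actin cytoskeleton and targets of SRF and MRTF gave 5 higher and 15 lower of 34 tested in S280D against S280A, which is 14.7% higher beside 21.3% of all genes and 44.1% lower beside 18%. In S280D against YFP 4 were higher and 9 lower, or 11.8% beside 17.1% and 26.5% beside 13.7%. Among them Actb, cytoplasmic β-actin, averaged 4208 ± 440 CPM in S280D and 6993 ± 706 CPM in S280A (SD, n = 2 each), a log2 fold change of -0.73 (adjusted p = 0.00352). Cfl1, the actin-severing protein cofilin, fell by 0.80 in the same comparison (adjusted p = 0.00323), and Pfn1, profilin, fell by 0.72 in S280D against YFP (0.00416). Cald1, caldesmon, ran the other way, with rises of 1.29 against S280A (0.00178) and 1.00 against YFP (0.00384). Filip1l also rose, by 1.02 against S280A (0.00286) and by 0.86 against YFP (0.00617), as did Cfl2 by 0.63 against YFP (0.00629). The median log2 fold change of this list was -0.30 in S280D against S280A, beside -0.01 over all genes.

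Of 29 cofactors of SRF and repressors of muscle genes, 9 were higher and 4 lower in S280D against S280A, or 44.8% called beside 39.3% of all genes, with 31% higher beside 21.3% and 13.8% lower beside 18%. Eya1, Vgll3, Tead1 and Snai2 rose by 0.97, 0.95, 0.68 and 1.17 on the log2 scale. Tead1 binds the MCAT element of muscle promoters and Vgll3 is a cofactor of the TEAD family. In S280D against YFP, 8 of the 29 were higher and 5 lower, or 44.8% beside 30.7%, and Klf4, a repressor of smooth muscle genes, rose by 0.58 (adjusted p = 0.00625).

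Of 24 calcium handling genes, 6 were higher and 4 lower in S280D against S280A, or 41.7% beside 39.3% of all genes, which is near the background. Cacna2d1, a calcium channel subunit, was up by 1.53 on the log2 scale and Jph2, junctophilin, down by a log2 fold change of -0.64. Of 28 genes of the dystrophin complex, adhesion and the muscle membrane, 6 were higher and 8 lower, or 21.4% higher beside 21.3% and 28.6% lower beside 18%. Dmd, which encodes dystrophin, averaged 23.9 ± 6.97 CPM in S280D and 6.48 ± 1.76 CPM in S280A (SD, n = 2 each), a rise of 1.88 ± 0.29 (adjusted p = 0.00185), and Jup, plakoglobin, fell by 0.64 (adjusted p = 0.0041).

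Intron reads, which come largely from unspliced RNA, gave a second readout of 28 of the 34 genes and were fitted in the same way; this fit was chosen after seeing the data. In S280D against S280A, 13 of the 16 called genes with intron data had the same sign in intron as in exon reads, and in S280D against YFP 10 of 11. Both readouts come from the same libraries and these genes were picked by their exon calls, so shared signs are not independent support. The share of same signs over all called genes was not computed. Calls were few, with 1 of 28 genes in S280D against S280A beside 4.54% of all genes, 1 in S280D against YFP beside 5.35% and 1 in WT against YFP beside 2.02%. S280A against WT, with 0.0077% of all genes called, S280A against YFP, with 0.0154%, and S280D against WT, with 0%, had no call among the 28.

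Mef2a intron reads stood at 62.5 and 65.6 CPM in S280D and 22.9 and 36.1 CPM in YFP, a log2 fold change of 1.10 ± 0.27 (edgeR adjusted p = 0.0334), beside 1.39 in exon reads. In S280D against S280A neither MEF2 gene was called in intron reads, where Mef2a had a log2 fold change of 0.50 (adjusted p = 0.283) beside 1.16 in exon reads and Mef2c 0.65 (adjusted p = 0.175) beside 1.33. Mef2c intron reads differed by 0.04 in S280D against YFP, at 35 and 35.8 CPM in S280D and 26.7 and 41.5 CPM in YFP, beside 0.80 in exon reads, and the difference between the readouts was not tested. Cdh15 intron reads stood at 7.84 and 14 CPM in S280D and 24.3 and 39.3 CPM in S280A, a log2 fold change of -1.57 ± 0.35 (adjusted p = 0.0285). Tnnt2 intron reads stood at 26 and 30.2 CPM in WT and 53.4 and 69.8 CPM in YFP, a log2 fold change of -1.14 (adjusted p = 0.0463).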

How the data were processed

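Poly(A) RNA was made into strand-specific paired-end libraries (15 PCR cycles, per the labels' protocols). Raw counts, not normalized, were deposited by the authors as 1 table, with exon, unique exon and intron reads for each gene and library, per the file headers, in the Rnor_6.0 build named in the submitters' processing notes. The sources used here name no aligner, annotation or strand setting for the counting. Exon lengths and coordinates are those of the table. The WT library titled 2 is numbered 3 in its description and is replicate 2 here.

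The exon counts were compared by edgeR 4.0.16 (R 4.3.3): filterByExpr, TMM scaling, and a quasi-likelihood fit of all 8 libraries by group, which leaves 4 residual degrees of freedom. Each of 6 two-sided contrasts was adjusted by Benjamini-Hochberg over 12407 genes, with calls under 0.05. The biological coefficient of variation was 0.133. CPM are TMM-scaled, and SE are of the log2 fold change. Within-lane ratios used CPM plus 0.5. Promoters were matched by symbol. Reads of PCR-amplified libraries without molecular identifiers are not independent molecules, and with 14018785 exon reads in the smallest library, low CPM rest on few reads.

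The members and lists were chosen with earlier results of these data known. Genes called in at least 1 comparison, and others fixed by name, have values for every library, and the rest a range. Of each pathway list up to 4 called genes per comparison were eligible by smallest adjusted p. Col1a1 and Postn were named after their values were seen. Alternatives tried were RLE scaling, testing without the low-count filter, DESeq2 1.42.0, a replicate block, a lane covariate, unique reads only, a loess offset on exon length, and omission of each library singly, where the lone library left is assumed to vary like other groups. The intron fit was added after seeing the data. Scripts were tested on simulated data.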

Additional observations from a re-analysis of the deposited data

How the results depend on the processing

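Of 102 results on named genes, none changed sign in 1527 alternative values, 1255 kept their side of the threshold, 253 lost the call and 19 gained one. Most of these results were picked because they were called in these libraries, which the alternatives reuse, so a kept sign is not an independent check. In WT against YFP, DESeq2 called 12 of the 34 genes, an offset for exon length 11 and lane as a covariate 0, beside 7. Lane as a covariate also cut S280D against YFP to 3 (Mef2a, Mef2c and Tpm2) and S280A against WT to 5. Without a filter on low counts, S280A against YFP had 3 calls and S280D against WT 1, and DESeq2 gave 1 in S280A against YFP; the cause was not tested. Leaving out single libraries gave 1 to 9 calls in WT against YFP, 0 to 1 in S280A against YFP, 1 to 13 in S280D against YFP, 0 to 15 in S280A against WT, 0 in S280D against WT and 2 to 16 in S280D against S280A.

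Over all genes, lane as a covariate gave 9 calls beside 2437 in WT against YFP, 1654 beside 3815 in S280D against YFP, 993 beside 3226 in S280A against WT, and 2 and 1 beside 5 and 5 in S280A against YFP and S280D against WT. DESeq2 called 100 and 38 genes in the last 2 comparisons, no filter on low counts 278 and 129, an offset for exon length 8 and 5, and the block 4 and 3. Leaving out single libraries gave 163 to 2917 in WT against YFP, 2 to 131 in S280A against YFP, 917 to 4152 in S280D against YFP, 6 to 3859 in S280A against WT, 0 to 13 in S280D against WT and 1254 to 5223 in S280D against S280A, beside 4873.

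With the replicate block the counts were 6 in WT against YFP, 0 in S280A against YFP, 11 in S280D against YFP, 10 in S280A against WT, 0 in S280D against WT and 16 in S280D against S280A. Calls lost under the block were Mef2c and Srf in WT against YFP, Myl9 in S280D against YFP, Cnn2 and Thy1 in S280A against WT, and Actc1 and Hand2 in S280D against S280A. Correlations of the differences between replicates 1 and 2 were 0.118 to 0.205 among the receptor groups and -0.173 to -0.0916 between these and YFP. The labels give no shared culture or day, and with 2 numbers a group the pairing was not settled, so the block was kept as an alternative. Few reads lie behind Myog, Actc1 and Des, which limits the precision of their values.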
